A study of Mus musculus with 8 samples.

Results

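The densest clusters of distal open chromatin in undamaged mouse liver were followed through regeneration after partial hepatectomy (PHx), an operation that takes away liver lobes. Bulk ATAC-Seq, which reads out where the Tn5 transposase can reach DNA, was done on hepatocytes isolated by collagenase perfusion from C57BL/6 mice labelled 10 to 12 weeks old and fed normal diet. The 8 libraries comprised 2 of undamaged liver (0 h) and 2 for each time of 48, 72 and 96 h after PHx, and no genetic alteration is given for any group. The labels give the strain as C57BL/6, and the methods name adult male C57BL/6J mice and a somewhat younger age at PHx than the labels. The study's text describes more bulk replicates at the earlier times than were analysed here. Each library gave a list of peaks with no read counts, so depth is unknown.

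Members were chosen from the 0 h lists alone. The 50000 distinct intervals with the highest −log10 p of the peak caller were kept in each of the 2 lists and merged into 57253 regions, of which 41762 were covered in both libraries. Of these, 26370 lay over 2 kb from any annotated transcription start site (TSS) and are called distal. Joining neighbouring distal regions over gaps within the customary stitching distance, which left 12.46 kb as the widest gap in a member, gave 18905 clusters, 13974 of which held 1 region. The members are the 300 clusters with most regions, with ties ordered by covered length, and they held 1602 regions. The number of regions per cluster and the 0 h strength of the regions were therefore set by the choice and are given as a description. The last clusters inside the limit, at Maco1 and Gas2l3, had 4 regions covering 2972 and 2965 bp, and the first outside it, at Fam222a and Slc41a2, had 4 regions covering 2964 and 2961 bp.

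Distal open regions include enhancers, short stretches of DNA where transcription factors bind and act on promoters at a distance. In hepatocytes, enhancers of genes for plasma proteins and metabolism are bound by combinations of liver-enriched factors of the FOXA, HNF4, HNF1, C/EBP and ONECUT families. Neighbouring enhancers are often stitched together into domains at genes that define a cell type, a step usually ranked on histone marks or coactivator signal. No such signal was measured here, so the clusters below are groups of nearby accessible regions and each is named by the protein-coding gene whose TSS was nearest to its middle. Proximity does not show which gene, if any, a region acts on.

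Sequences of the Cebpa and Igf1 clusters are shown because their regions were lost and retained unequally, as described below. Each line gives the 200 bp around the summit of a region's strongest 0 h peak, on the plus strand of mm10, read from GRCm38.p6, and capitals mark matches to the searched motifs on either strand. The Cebpa cluster surrounds the gene of C/EBP-alpha, a transcription factor of mature hepatocytes, whose TSS lay inside the span. A match to the FOXA letters TGTTTAC was found in 5 of its 7 regions, and in region 4 it overlapped a match to ACANNNTGT, a spaced palindrome of the glucocorticoid receptor (GR) type. Region 5 also held HNF1 letters (TTAATNATT) on both strands, and region 6 held DR1 (CAAAGGTCA), TEAD (CATTCCA) and GR letters. Regions 2 to 7 are shown.
Cebpa region 2, chr7:35116579-35116778: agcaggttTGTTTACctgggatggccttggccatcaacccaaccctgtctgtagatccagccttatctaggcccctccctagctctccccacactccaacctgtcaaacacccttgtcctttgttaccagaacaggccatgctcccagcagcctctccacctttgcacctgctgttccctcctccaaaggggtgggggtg
Cebpa region 3, chr7:35122821-35123020: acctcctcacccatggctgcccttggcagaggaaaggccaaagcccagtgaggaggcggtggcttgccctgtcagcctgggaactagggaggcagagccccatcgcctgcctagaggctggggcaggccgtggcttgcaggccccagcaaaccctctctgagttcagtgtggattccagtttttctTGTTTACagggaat
Cebpa region 4, chr7:35134764-35134963: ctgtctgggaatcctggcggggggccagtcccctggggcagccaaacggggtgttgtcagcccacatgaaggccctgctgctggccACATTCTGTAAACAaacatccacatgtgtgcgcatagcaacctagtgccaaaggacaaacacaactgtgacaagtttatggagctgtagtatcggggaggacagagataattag
Cebpa region 5, chr7:35143966-35144165: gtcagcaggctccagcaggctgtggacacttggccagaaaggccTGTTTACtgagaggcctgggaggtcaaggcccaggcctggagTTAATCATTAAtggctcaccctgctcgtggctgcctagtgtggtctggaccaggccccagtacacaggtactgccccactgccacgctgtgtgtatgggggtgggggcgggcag
Cebpa region 6, chr7:35146487-35146686: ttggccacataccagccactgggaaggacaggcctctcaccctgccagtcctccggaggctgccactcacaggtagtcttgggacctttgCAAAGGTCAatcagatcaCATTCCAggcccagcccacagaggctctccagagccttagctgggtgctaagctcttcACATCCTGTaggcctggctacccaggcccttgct
Cebpa region 7, chr7:35150097-35150296: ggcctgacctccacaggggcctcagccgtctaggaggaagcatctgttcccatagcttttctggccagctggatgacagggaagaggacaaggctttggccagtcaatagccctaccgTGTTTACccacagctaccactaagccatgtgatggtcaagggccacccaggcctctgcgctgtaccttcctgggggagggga

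The Igf1 cluster lay in introns of the gene of insulin-like growth factor 1, which the liver secretes under growth hormone. Regions 1 and 3 held matches to the STAT letters TTCNNNGAA and region 2 held 2 matches to the C/EBP letters TTGCNNAA. In regions 4 and 5 none of the 13 motifs matched in this window.
Igf1 region 1, chr10:87885742-87885941: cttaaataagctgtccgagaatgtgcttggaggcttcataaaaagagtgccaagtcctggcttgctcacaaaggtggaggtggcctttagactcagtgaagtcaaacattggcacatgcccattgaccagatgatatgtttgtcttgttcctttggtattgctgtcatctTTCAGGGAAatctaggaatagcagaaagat
Igf1 region 2, chr10:87894524-87894723: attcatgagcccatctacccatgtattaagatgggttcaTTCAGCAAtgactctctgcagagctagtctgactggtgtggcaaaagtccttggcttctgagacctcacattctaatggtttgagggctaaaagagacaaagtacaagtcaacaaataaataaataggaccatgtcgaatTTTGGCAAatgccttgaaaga
Igf1 region 3, chr10:87906829-87907028: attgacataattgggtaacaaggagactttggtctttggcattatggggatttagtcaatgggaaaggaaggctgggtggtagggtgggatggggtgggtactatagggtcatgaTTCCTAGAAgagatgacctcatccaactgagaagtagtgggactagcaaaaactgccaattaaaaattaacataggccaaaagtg
Igf1 region 4, chr10:87915898-87916097: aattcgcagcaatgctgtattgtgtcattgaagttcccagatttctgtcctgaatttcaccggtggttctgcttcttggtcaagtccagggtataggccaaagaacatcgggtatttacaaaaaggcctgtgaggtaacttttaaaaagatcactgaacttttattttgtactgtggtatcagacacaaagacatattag
Igf1 region 5, chr10:87927030-87927229: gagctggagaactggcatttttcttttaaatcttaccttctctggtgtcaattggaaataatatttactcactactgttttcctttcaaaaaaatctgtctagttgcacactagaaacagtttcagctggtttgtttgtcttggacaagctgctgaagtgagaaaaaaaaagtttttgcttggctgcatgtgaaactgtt

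The first region of the cluster near Cracr2a, a calcium sensor protein, is shown as an example of a member with a match to the CTCF consensus, the binding sequence of a factor that holds chromatin loops.
Cracr2a region 1, chr6:127524518-127524717: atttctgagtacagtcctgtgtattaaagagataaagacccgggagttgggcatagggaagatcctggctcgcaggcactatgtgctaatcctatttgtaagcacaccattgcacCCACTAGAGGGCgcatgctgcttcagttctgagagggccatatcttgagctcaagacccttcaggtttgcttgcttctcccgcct

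Member clusters held 4 to 15 regions. Of the 300, 84 had 4 regions, 121 had 5, 54 had 6, 21 had 7 and 20 had 8 or more. Their spans ranged from 7.10 to 90.3 kb with a median of 27.4 kb, and a median of 3.46 kb of a span was covered by its regions. Neighbouring regions were separated by a median of 6.11 kb. In total the clusters spanned 8.77 Mb, of which 1.10 Mb was open by this definition, and they were spread over 20 chromosomes, with 27 on chromosome 4, 26 on chromosome 2, 4 on chromosome 19 and 1 on chromosome X. A protein-coding TSS lay inside the span of 69 clusters. The middle of a cluster was a median of 26.1 kb from the nearest coding TSS.

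The largest cluster, at Zmiz1 (a coregulator of transcription), held 15 regions over 83.1 kb (chr14:25466045-25549107), 14 of them intronic. The cluster at Mical3, an enzyme that oxidises actin, held 13 regions and that at Fabp1, the liver fatty acid binding protein, held 11. Next came clusters of 10 regions at Fam214a, Fbxo15, Trim2 (a ubiquitin ligase) and Klhl8, and clusters of 9 regions at Wdr5 (a scaffold of histone methyltransferases), Tns1 (a focal adhesion protein) and Cmip. The Fam214a cluster was also near Onecut1, a liver-enriched transcription factor whose TSS lay 27481 bp from the span.

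Genes of mature hepatocyte function were often near a member. Of all 21911 protein-coding genes, 2.56% had a TSS inside a member span or within 50 kb of one. Among 27 hepatocyte transcription factors the count was 7 (25.9%). They included Onecut1, Cebpa, Rxra (the partner of many nuclear receptors, 7631 bp from a 7-region cluster) and Hnf4a (26988 bp from a 6-region cluster). Among 43 plasma protein genes the count was 11 (25.6%), with Alb and Afp sharing a cluster of 7 regions that lay 10561 bp from the Alb TSS, and the fibrinogen genes Fga, Fgb and Fgg sharing a cluster of 6 regions. These neighbours share clusters, so the 11 genes stand for 6 clusters. Among 51 genes of liver metabolism the count was 12 (23.5%). These included Slc2a2, the hepatocyte glucose transporter (7368 bp from 7 regions), Asl of the urea cycle (2115 bp from 6 regions) and Adh1, an alcohol dehydrogenase (13649 bp from 6 regions).

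For 30 genes of growth signalling and the immediate response the count was 3 (10.0%), all at regulators of transcription or growth: Btg2 (3198 bp from 6 regions), Bcl6 (4363 bp from 5 regions) and Fos (3395 bp from 4 regions). The lists were chosen with results of these data known and hold well-studied genes, so these counts are a description.

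The labelled cell type was checked by peaks within 1 kb of the TSS of marker genes. Of 5 hepatocyte markers, 4 had a kept peak in both 0 h libraries, with Alb kept in 1 of the 2, and 4 were near a member cluster. None of 5 Kupffer cell, 4 endothelial and 3 lymphoid markers had a kept peak in both 0 h libraries. Peaks were kept at 2 of 4 stellate cell markers (Lrat and Reln) and at 1 of 4 bile duct markers (Epcam), and another bile duct marker, Sox9, was kept in 1 of the 2 libraries of 0 h. After PHx, peaks were kept in 6 of 6 libraries at Hnf4a and Cebpa, in 5 at Apoa1, in 3 at Ttr and in 0 at Alb among the hepatocyte markers, and in 6 of 6 at Lrat, Reln, Epcam and Sox9 and in 1 of 6 at the endothelial marker Kdr. At the other 15 markers of other cell types no PHx library kept a peak. None of these 20 markers of other cell types was near a member cluster. In bulk libraries, fewer cells of a type and less accessible DNA per cell cannot be told apart.

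Member regions differed from the 24768 other distal regions in several features, and the next 300 clusters are given beside them. Their median GC content in the 200 bp window was 52.0%, against 50%, and 57.1% lay in introns, against 51.9%. In the 1174 regions of the next 300 clusters the values were 51.5% and 54.7%. Regions were slightly longer in members (median 625.5 bp) than outside (581 bp) or in the next 300 clusters (540.5 bp), a difference to which the ordering of ties by covered length contributed by construction. The median −log10 p, which the choice used, was 34.1 and 23.6 in the 2 libraries of 0 h for members and 34.9 and 23.6 for the others. The median fold enrichment over local background was lower in members (7.73 and 7.69) than outside (9.79 and 9.31), and was 7.86 and 8.04 in the next 300 clusters.

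The largest contrast in motif content was for CTCF. A match to its consensus was found in 72 of 1602 member regions (4.49%) and in 9.44% of the others, a ratio of 0.476, and regions that were alone in their cluster reached 10.7%. Across cluster sizes, the share fell from 10.7% for single regions to 8.36% in pairs, 6.56% in clusters of 4 and 3.26% in clusters of 7 or more. Within members it was 6.83% at the outermost regions of a cluster and 3.09% at the inner ones. Over all distal regions the consensus was found in 9.14% of windows.

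Among liver-enriched factors the ratios went both ways. The ONECUT letters ATCAATA were found in 3.12% of member regions and 4.75% of the others, and the HNF1 letters in 2.497% and 3.47%. The FOXA letters were more frequent in members (7.24% against 6.19%), as were the GR letters (8.43% against 7.17%). The C/EBP letters were found in 14.4% and 15.7%, the HNF4 letters CAAAGTCCA in 1.62% and 1.91%, and the DR1 letters, which HNF4 and other nuclear receptors bind, in 1.94% and 1.73%. For the stress and growth responsive motifs AP-1 (TGANTCA; 9.36% against 8.86%), STAT (5.81% against 5.90%), TEAD (3.93% against 3.77%) and CRE (TGACGTCA; 0.312% against 0.287%) the shares were close. The ETS letters CCGGAAGT were found in 9 member regions only (0.562% against 0.339%). Letters of different motifs can overlap, regions within a cluster are not independent, and no test was made of these shares.

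The Cebpa cluster, singled out after its sequence was seen, had the most regions with FOXA letters of any member, 5 of 7, whereas the next cluster had 3.

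**Figure D1:**
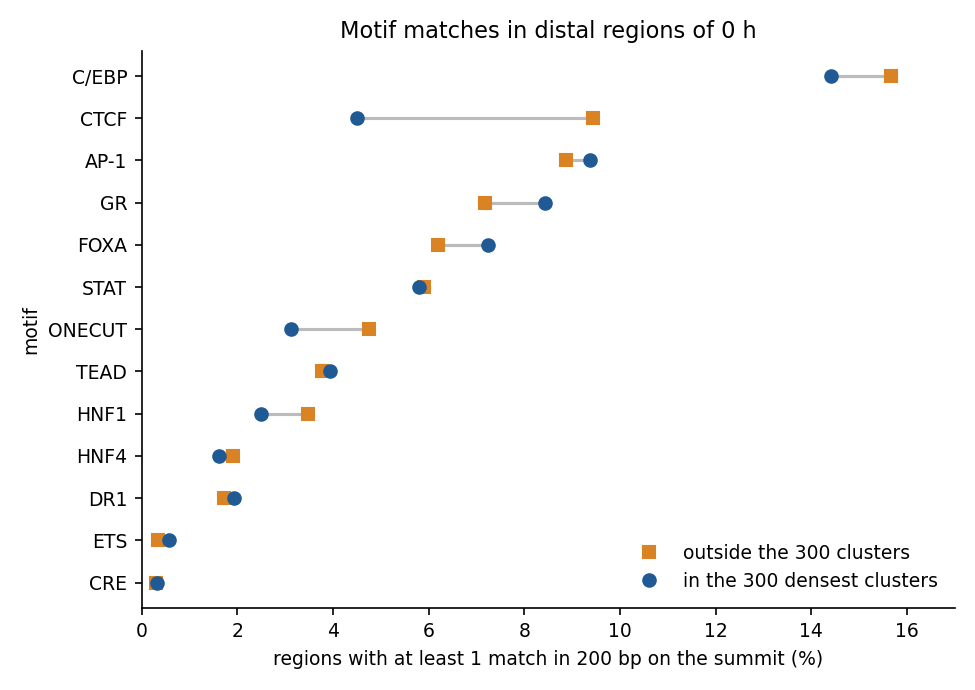
Share of distal 0 h regions (horizontal axis, %) with at least 1 match to each of 13 motifs (vertical axis) in 200 bp on the summit, for 1602 regions of the 300 densest clusters (circles) and 24768 other regions (squares). CTCF shows the widest gap, 4.49% against 9.44%.

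The main comparison asked whether regions in dense clusters stayed among the strongest intervals of a library after PHx. A region counted as kept in a library where any of that library's 50000 strongest intervals overlapped it by 1 bp or more. Most member regions were kept at every time point. The 48 h libraries kept 80.0% and 83.6% of them in replicates 1 and 2, the 72 h libraries 86.5% and 85.2%, and the 96 h libraries 84.3% and 81.8%. Of the other distal regions, the 48 h libraries kept 82.2% and 84.4%, the 72 h libraries 87.9% and 86.3%, and the 96 h libraries 87.5% and 84.5%. Members thus lay below the others in 6 of 6 libraries.

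The difference was −1.90 ± 0.953 percentage points (SD, n = 6 libraries; exact two-sided sign-flip permutation test, p = 0.03125, the smallest this test can give). It ranged from −0.713 points in 48 h replicate 2 to −3.20 points in 96 h replicate 1. Within 10 strata of 0 h strength it was −2.19 ± 0.952 points and again below 0 in 6 of 6 libraries (exact two-sided sign-flip permutation test, p = 0.03125). The study's text describes biological replicates from separate hepatocyte preparations at 0 and 48 h, but the labels do not tie these libraries to separate mice. These p-values therefore measure only the spread between these samples, and all 6 values rest on the same regions. The call depended on how clusters were ordered and intervals ranked. With clusters ordered by covered length, the difference was 0.0430 points (exact p = 0.906), and with intervals ranked by fold enrichment it was −1.04 points (exact p = 0.0938), or 0.491 within strata (exact p = 0.406). Counting any interval of a deposited list as presence removed it (0.00140 points, exact p = 0.969), since between 97.6% and 99.9% of member regions overlapped some listed interval in each PHx library.

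**Figure D2:**
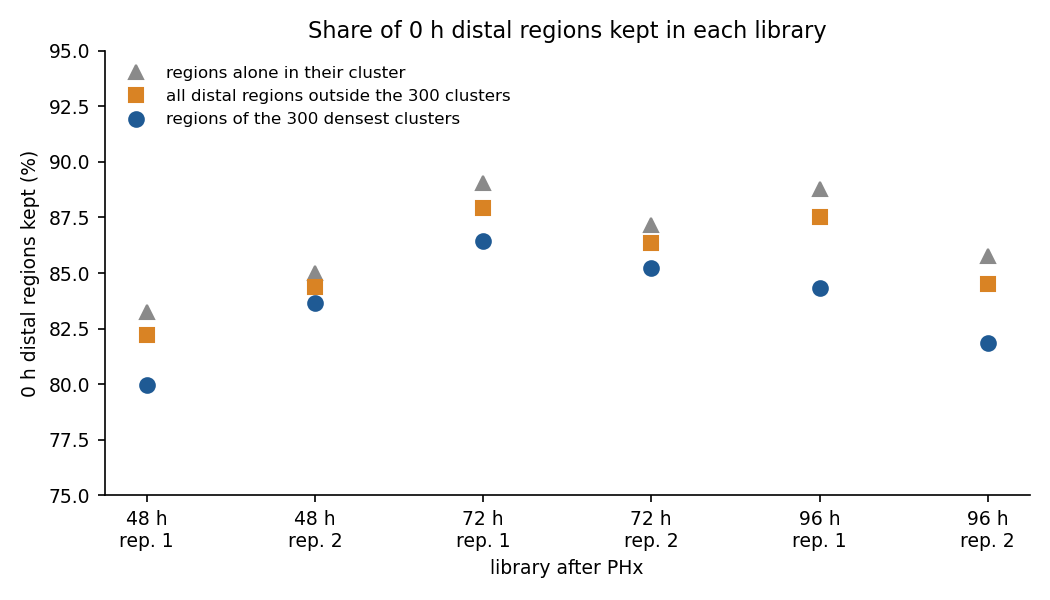
Share of 0 h distal regions kept (vertical axis, %, starting at 75) in each of the 6 PHx libraries (horizontal axis), for regions of the 300 densest clusters (circles), all other distal regions (squares) and regions alone in their cluster (triangles). Circles lie lowest in 6 of 6 libraries, with the widest distance to the squares in 96 h replicate 1.

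The share kept declined with strength at 0 h, in members and in the other regions. All distal regions were divided into 10 equal groups by 0 h strength. In group 1, the strongest, 100% of 160 member regions and a mean of 99.9% of other regions were kept over the 6 libraries. The means were 90.5% and 91.2% in group 5, 69.1% and 74.6% in group 8, 62.1% and 67.9% in group 9, and 56.2% and 61.0% in group 10. The distance between members and others was widest in the weakest 3 groups. The ranges over libraries overlapped in group 10 (47.8 to 63.0% against 57.9 to 63.4%) but not in group 9 (59.6 to 63.98% against 64.3 to 70.9%). Library by library, members lay below the others in group 10 except in 72 h replicate 2 (63.0% against 61.6%). The groups were not tested one by one.

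The mean share kept was 86.5% for regions alone in a cluster, 84.5% in pairs, 83.9% in clusters of 3, 83.7% in clusters of 4, 82.3% in clusters of 5, 82.6% in clusters of 6 and 82.4% in clusters of 7 or more. All sizes were read in the same libraries, and in each of the 6 pairs lay below single regions (81.0 to 86.9% against 83.3 to 89.0%). From clusters of 5 on, the means did not fall in order. Differences between sizes were not tested. The 1174 regions of the next 300 clusters were kept at 79.6% to 86.8% in the 6 libraries, against 80.0% to 86.5% for the members.

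Regions with a CTCF match were kept at 87.8 to 93.9% over libraries outside members and at 75 to 95.8% within them, and members had fewer such regions. Without them the difference between members and others was −1.53 points (exact permutation p = 0.03125). Within strata of GC content it was −3.64 points and within strata of region length −2.55 points (both exact permutation p = 0.03125). These 3 settings were chosen after the main result was seen.

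**Figure D3:**
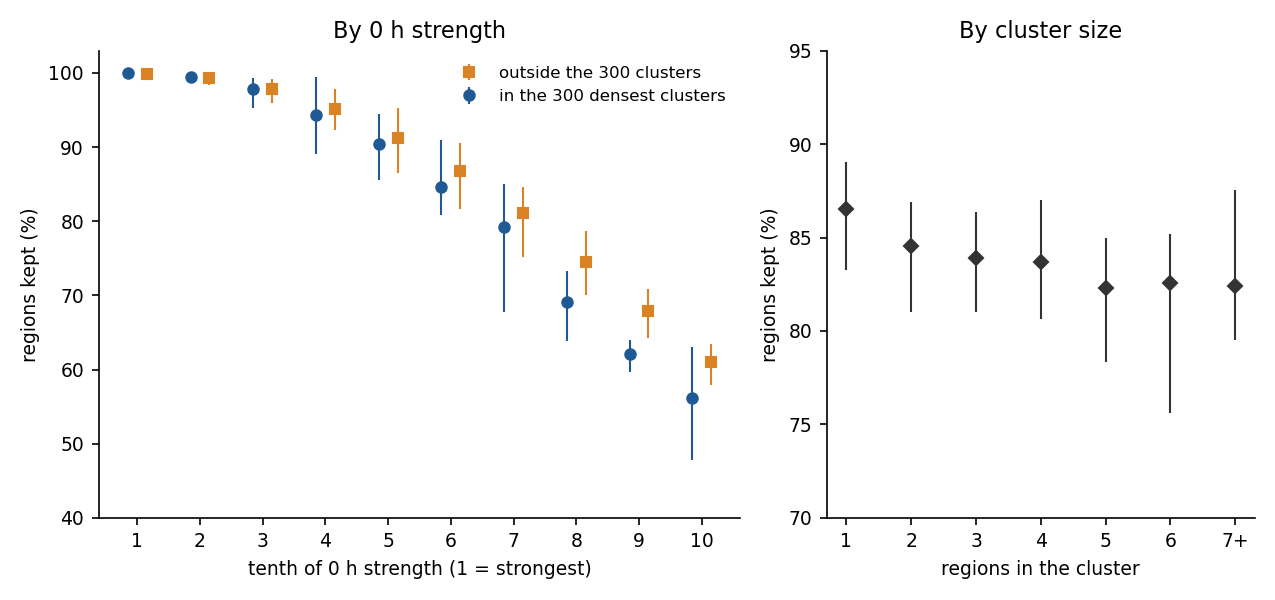
Mean share of regions kept over 6 PHx libraries (vertical axes, %, not starting at 0), with bars from the lowest to the highest library, by group of 0 h strength (1 strongest to 10 weakest) for members (circles) and other regions (squares) at left, and by number of regions in the cluster for all distal regions at right. Means fall from 100% and 99.9% in group 1 to 56.2% and 61.0% in group 10, and the circles lie under the squares in the weaker groups.

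Within member clusters, outermost regions were kept at a mean of 85.1% and inner ones at 82.7%. At least 50% of the regions were kept in 287 to 296 of the 300 clusters, depending on the library. Both 48 h libraries kept every region of 75 clusters (25%, against 35.5% of all 1558 clusters with 3 or more regions), both 72 h libraries of 105 (35%, against 44.1%), both 96 h libraries of 77 (25.7%, against 36.6%), and all PHx libraries of 34 (11.3%, against 17.2%). A cluster with more regions has more to lose. Among clusters of exactly 4 regions, all PHx libraries kept every region of 21 of 84 members (25%) and of 30 of 274 others (10.9%), where the members are those with more covered length.

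Regions that left the strongest intervals in both libraries of a time point were counted beside the same count over all 26370 distal regions. At 48 h 150 member regions (9.36%) were kept in neither library, against 8.08% of all distal regions. At 72 h the count was 110 (6.87%) against 5.98%, and at 96 h it was 114 (7.12%) against 5.49%. There were 26 member regions in 23 clusters (1.62%, against 1.19%) that no PHx library kept. With members chosen without 0 h replicate 1 the count was 148, and without 0 h replicate 2 it was 65. All PHx libraries kept 931 member regions (58.1%, against 61.3%). The 0 h lists chose all of these regions, so some loss in any other library follows from the choice, for members and others alike.

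The share of members kept was 81.8% ± 2.60 (48 h), 85.8% ± 0.883 (72 h) and 83.1% ± 1.77 (96 h), each as mean ± SD of 2 libraries. The 48 h libraries lay 2.65 points below those of 72 and 96 h (exact two-sided permutation test, p = 0.267, where the smallest possible p is 0.0667). As 48 h minus the later times, the difference was −0.811 points without 48 h replicate 1, −4.49 without 48 h replicate 2 and −1.26 with members chosen without 0 h replicate 1. Both 72 h libraries lay above the 4 libraries of 48 and 96 h. Members minus others was −1.47 ± 1.07 points (48 h), −1.31 ± 0.236 (72 h) and −2.93 ± 0.384 (96 h), each as mean ± SD of 2 libraries, and both 96 h libraries lay below the 4 others. The contrasts of 72 h and of 96 h with the other times were not tested. Between 48 h and the later times members minus others differed by 0.647 points (exact two-sided permutation test, p = 0.533), and by −0.111 to 1.79 points when 1 library was left out, the lowest without 48 h replicate 2. The last of the 50000 intervals had a −log10 p of 8.05 to 8.62 in both 48 h libraries and 96 h replicate 2, and of 14.0 to 14.8 in the other 3 PHx libraries. The member difference was below 0 in 3 of 3 libraries of either kind, with means of −1.87 and −1.94 points. The deposited name of the 72 h replicate 2 list lacks the flow cell label that the others share, and without that library the difference was −2.05 points, below 0 in the other 5.

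Inside member spans, distal regions without a kept 0 h interval were counted at each time point. At 48 h, 19 of the 1223 distal regions present in both libraries within member spans had no kept 0 h interval (1.55%), against 6.35% of all distal regions of 48 h. At 72 h they were 8 of 1293 (0.619%, against 6.68%) and at 96 h 4 of 1194 (0.335%, against 5.42%). The spans were drawn around 0 h regions, so a low share is built in. The counts moved with the libraries and the number of intervals. The 19 became 39 and 33 without 0 h replicates 1 and 2, and 48 and 52 without 48 h replicates 1 and 2. The 8 became 25 and 21 without the 0 h replicates, and 35 and 31 without the 72 h replicates. The 4 became 17 and 19 without the 0 h replicates, and 23 and 32 without the 96 h replicates. With 25000 intervals per library they were 1, 0 and 0, and with 100000 they were 50, 41 and 35. All of these new regions overlapped a weaker interval of a deposited 0 h list. Sulf2, which encodes a heparan sulfatase, had 2 of the 19 in its cluster. One lay in the fibrinogen cluster at 48 h, one in the cluster of Pck1 (a gluconeogenic enzyme) at 72 h and one in the Zmiz1 cluster at 96 h. These 4 clusters were chosen after the list was seen.

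To follow single clusters, each region was given its percentile among all distal regions of a library by the −log10 p of its strongest interval, and these were averaged over the cluster. The 0 h values chose the members, so what follows is a description. A cluster was counted as lower at a time point if both of its libraries lay below both 0 h libraries, and higher in the reverse case, beside the same over all 1558 clusters with 3 or more regions. At 48 h 93 member clusters (31.0%) were lower, against 26.4%, and 49 (16.3%) were higher, against 18.4%. At 72 h 91 (30.3%) were lower, against 27.5%, and 46 (15.3%) higher, against 17.1%. At 96 h 98 (32.7%) were lower, against 27.3%, and 34 (11.3%) higher, against 12.3%. Lower in all 6 PHx libraries were 42 clusters (14.0%, against 10.1%) and higher 7 (2.33%, against 4.24%).

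The balance of these counts depended on the scale. With percentiles of fold enrichment for the same clusters, 28 were lower and 111 higher at 48 h (9.33% and 37%, against 13.3% and 31.1% of all 1558 clusters). At 72 h 46 and 66 were (15.3% and 22%, against 16.2% and 21.8%), and at 96 h 38 and 53 (12.7% and 17.7%, against 13.8% and 16.8%). With percentiles within the whole deposited list, 112 were lower and 27 higher at 48 h (37.3% and 9%, against 33.4% and 11.8% of all). At 72 h the counts were 46 and 96 (15.3% and 32%, against 13.2% and 31.3%), and at 96 h 69 and 30 (23% and 10%, against 21% and 11.7%). The 3 scales gave the same call for 20 lower and 19 higher clusters at 48 h (6.67% and 6.33%, against 8.66% and 8.02% of all), for 24 and 26 at 72 h (8% and 8.67%, against 7.12% and 10.7%), and for 17 and 12 at 96 h (5.67% and 4%, against 6.74% and 4.81%). No direction is therefore given for members as a whole, and the clusters described next are given with the scales on which their call held.

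On all 3 scales, 3 member clusters were lower and 2 were higher in all 6 PHx libraries than in both 0 h libraries. The 3 lower clusters are not described further, and the 2 higher ones are given here. The cluster near Cracr2a was higher after PHx on all 3 scales at every time point. Its mean percentile was 47.9 and 29.7 in the 0 h libraries, then 60.5 and 59.2 (48 h), 67.0 and 73.1 (72 h) and 70.7 and 64.1 (96 h). The 6 PHx values lay above both 0 h values, although the 0 h libraries themselves differed by more than 15 points. The first region, with the CTCF match shown above, went from 27.3 and 16.7 at 0 h to between 60.9 and 78.4 after PHx, and region 4 was kept in only 3 of 6 PHx libraries. The cluster at Rtn4rl2, a Nogo receptor family member, was higher on all 3 scales as well, with 40.6 and 30.1 in the 0 h libraries, then 51.4 and 56.5 (48 h), 40.9 and 56.1 (72 h) and 52.5 and 46.8 (96 h). Its lowest PHx value exceeded the higher 0 h value by little.

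The cluster near Rxra lay at 49.2 and 48.5 in the 0 h libraries, then 52.7 and 56.96 (48 h), 70.6 and 64.7 (72 h) and 73.8 and 63.4 (96 h). It was higher at 72 and 96 h on all 3 scales, and at 48 h on 2 of them. Others called higher in all PHx libraries by −log10 p were clusters at Cox4i2 (a lung-type subunit of cytochrome oxidase), Mettl7b, Itpr1 (an intracellular calcium channel) and Adra1d (an adrenergic receptor), the last 2 of which were picked after their values were seen. Within the deposited list Cox4i2 and Itpr1 were higher at each time point, and Mettl7b and Adra1d at 72 and 96 h. By fold enrichment Cox4i2 was higher at 48 h only, Mettl7b at 48 and 72 h, Adra1d at 72 and 96 h, and Itpr1 at 96 h only. The Itpr1 cluster in question had 4 regions, and a second cluster of 7 regions nearest to the same gene was lower in all PHx libraries, by −log10 p and by fold enrichment. The Dbi cluster, at the gene of an acyl-CoA binding protein, was higher at 48 and 72 h on all 3 scales, from 29.96 and 29.7 at 0 h to 47.7 and 52.8 at 48 h. At 96 h it lay at 36.6 and 26.6, on either side of its 0 h values, and was lower by fold enrichment. The Ywhaz cluster rose from 37.0 and 21.4 at 0 h to 42.6 and 51.4 at 48 h by −log10 p and by fold enrichment, but was not called within the deposited list.

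The Igf1 cluster showed the second largest fall at 48 h. Its mean percentile was 43.6 and 51.0 in the 0 h libraries, then 18.02 and 27.1 (48 h), 29.5 and 19.9 (72 h) and 12.3 and 35.2 (96 h), so that all 6 PHx libraries lay below both 0 h libraries. The call held within the deposited list, but by fold enrichment it was not made at any time point. Of its 5 regions, 2 were kept in 48 h replicate 1, 4 in 48 h replicate 2, 4 in both 72 h libraries, 1 in 96 h replicate 1 and 3 in 96 h replicate 2. Region 2, with the C/EBP letters, was kept in 1 PHx library and region 3 in 5. At 0 h region 2 lay at percentiles of 28.7 and 66.7, the latter the highest of the cluster in replicate 2. Region 3 lay at 50.5 and 57.7, highest in neither library but highest by the weaker of the 2 values. Different regions were lost in different libraries, and region 4 reached a percentile of 73.8 in 72 h replicate 1, above its 43.4 and 38.3 at 0 h.

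The Cebpa cluster was lowest at 96 h. Its mean percentile was 56.1 and 50.3 in the 0 h libraries, then 50.9 and 44.6 (48 h), 35.0 and 36.1 (72 h) and 28.6 and 21.7 (96 h). Of the 48 h libraries 1 lay within the 0 h range, whereas all 4 of 72 and 96 h lay below it. At 96 h it was lower on all 3 scales, and at 72 h on 2 of them. At 48 h it was not called by −log10 p, lower within the deposited list and higher by fold enrichment. Of 7 regions, the 48 h libraries kept 6 and 5, the 72 h libraries 5 each, and the 96 h libraries 4 and 3. Regions 3, 5 and 7, each with the FOXA letters, were kept in 6 of 6 PHx libraries, whereas regions 2 and 4, which also had them, were kept in 1 and 3. At 0 h regions 3, 5 and 7 lay at percentiles of 76.8 to 94.6, and regions 2 and 4 at 4.96 to 36.5. Region 6, without FOXA letters, lay at 9.18 and 22.2 and was kept in 1. The relation of loss to 0 h strength within this cluster was not tested.

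The cluster shared by Alb and Afp, the genes of albumin and of its fetal counterpart, also had its lowest mean at 96 h. It lay at 51.2 and 61.0 in the 0 h libraries, then 51.2 and 46.6 (48 h), 45.0 and 35.4 (72 h) and 39.8 and 33.5 (96 h), and was lower at 72 and 96 h on all 3 scales. At 48 h it was lower within the deposited list only. The fibrinogen cluster lay at 50.6 and 52.7 in the 0 h libraries, then 53.2 and 54.7 (48 h), 58.3 and 67.4 (72 h) and 26.1 and 48.4 (96 h). By −log10 p it was higher at 48 and 72 h and lower at 96 h, within the deposited list higher at 72 h and lower at 96 h, and fold enrichment made no call at any time point.

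Clusters near the listed genes are counted by −log10 p beside the shares over all 1558 clusters given above, 26.4% to 27.5% lower and 12.3% to 18.4% higher. Of 12 clusters near metabolic genes, 5 were lower and 0 higher at both 48 and 72 h, whereas 6 were lower and 1 higher at 96 h. By fold enrichment the balance turned, with 1 lower and 6 higher (48 h), 2 and 2 (72 h) and 1 and 3 (96 h), and within the deposited list 7 and 0, 2 and 2, and 5 and 2 were counted. Of 7 near hepatocyte transcription factors, the lower and higher counts were 2 and 1, then 4 and 1, then 3 and 1 by −log10 p, but 0 and 3, then 1 and 2, then 1 and 1 by fold enrichment, and 3 and 0, then 3 and 2, then 4 and 1 within the list. The 6 near plasma protein genes gave 2 and 1, then 3 and 1, then 4 and 0 by −log10 p, but 0 and 1, then 1 and 0, then 1 and 1 by fold enrichment, and 3 and 0, then 3 and 2, then 4 and 0 within the list. With so few clusters and a balance that moves with the scale, nothing is read from these counts. The 3 clusters near growth genes were lower at no time point on any scale. The cluster near Btg2, an inhibitor of proliferation, was higher at 72 h on all 3 scales (53.2 and 44.0 at 0 h against 61.9 and 59.5).

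**Figure D4:**
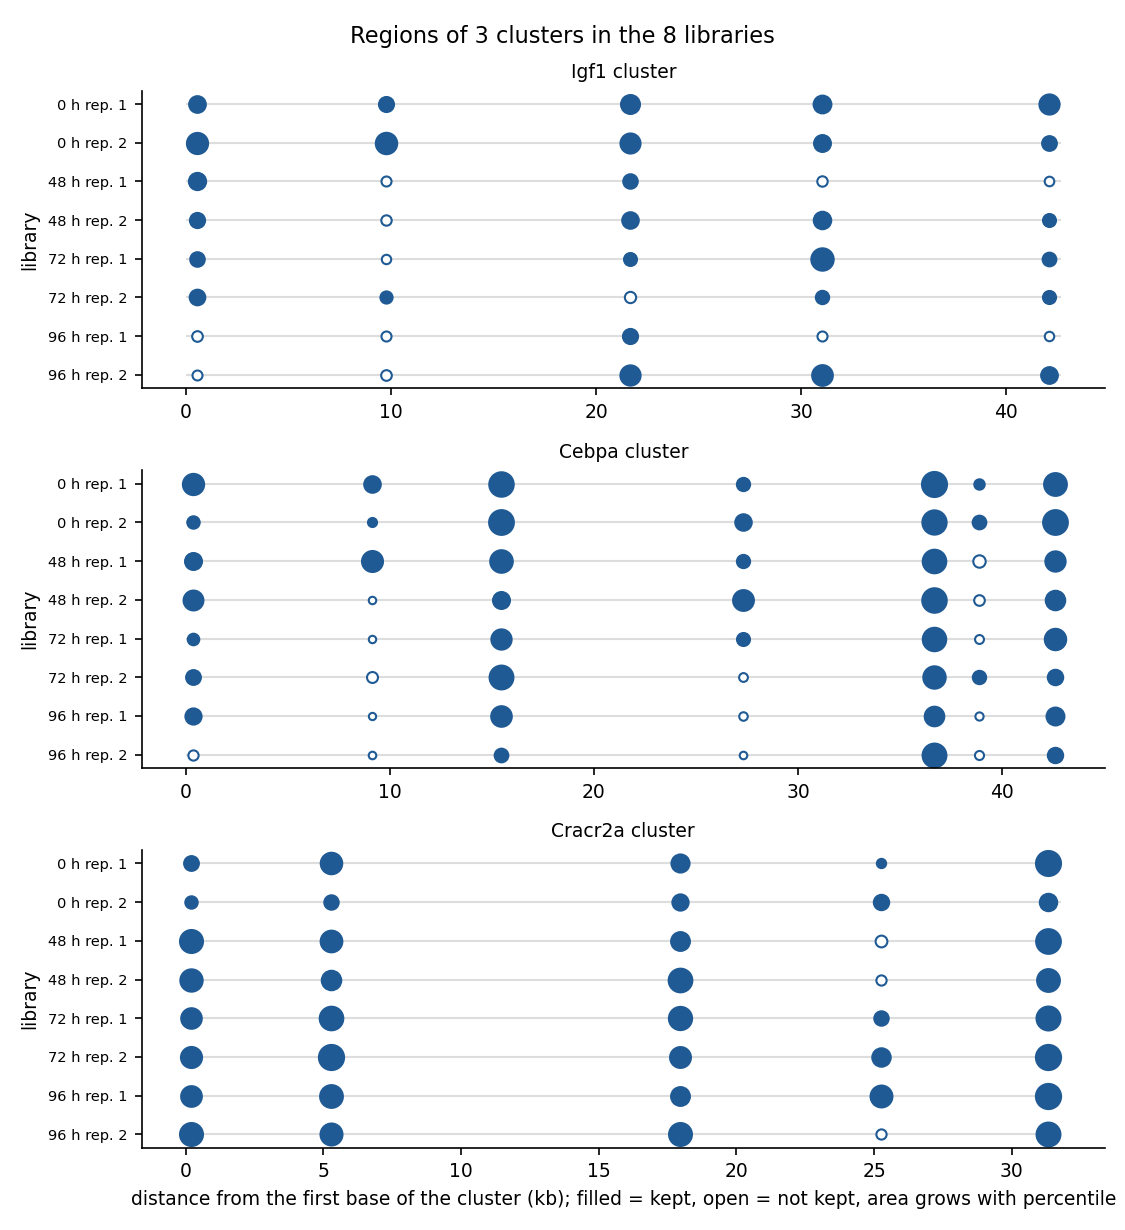
Regions of the Igf1, Cebpa and Cracr2a clusters, by distance from the first base of the cluster (horizontal axis, kb) and library (vertical axis). Filled circles mark regions among the 50000 strongest intervals, open circles the rest, and the area of a circle grows with the region's percentile. Igf1 loses different regions in different libraries, Cebpa keeps regions 3, 5 and 7 in each library, and Cracr2a lacks region 4 in 3 of 6 PHx libraries.

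The Slc2a2 cluster lay at 71.4 and 73.4 in the 0 h libraries, then 49.9 and 62.4 (48 h), 55.8 and 65.6 (72 h) and 46.3 and 50.05 (96 h). All 6 PHx values were lower by −log10 p, but by fold enrichment the call at 48 h was higher, and within the list it was lower at 48 and 96 h only. The Fabp1 cluster was likewise lower in all 6 by −log10 p (45.7 and 47.3 at 0 h against 33.0 to 44.7) and higher at 48 and 96 h by fold enrichment, and within the list it was lower at 48 h only. The Fam214a cluster near Onecut1 lay at 40.8 and 55.4 at 0 h and at 29.8 and 29.2 at 48 h, lower on 2 scales and not called by fold enrichment.

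The other large falls at 48 h were at Epha2 (an ephrin receptor), Gm826, Xxylt1 (a xylosyltransferase), Ints7 (a subunit of the Integrator complex) and Zbtb16 (a zinc finger repressor). Of these, Xxylt1 (80.1 and 80.5 at 0 h, 55.3 and 58.6 at 48 h), Ints7 (54.4 and 60.9 against 37.1 and 33.9) and Zbtb16 (46.7 and 46.7 against 25.2 and 25.2) were lower on all 3 scales at 48 h. Epha2 and Gm826 were not called by fold enrichment at that time. At 72 h Ints7 lay at 60.3 and 64.5 and Zbtb16 at 41.8 and 55.6, around their 0 h values, although Ints7 was called higher at that time within the deposited list and by fold enrichment, and Zbtb16 by fold enrichment. At 96 h both were lower again by −log10 p, with 43.3 and 49.4 for Ints7 and 35.4 and 38.8 for Zbtb16, although fold enrichment gave no call for the former and the opposite call for the latter.

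Among the largest clusters, Zmiz1 lay at 50.3 and 55.3 in the 0 h libraries, then 52.5 and 47.9 (48 h), 65.8 and 55.9 (72 h) and 64.1 and 56.4 (96 h), higher at 72 h on all 3 scales. At 96 h the call was missing within the list, and at 48 h the list gave a lower and fold enrichment a higher call. Of its 15 regions, the 48 h libraries kept 12 and 13 and the later ones 14 or 15. Mical3 kept 13 of 13 regions in each 48 h and 72 h library and 10 in each 96 h library, and its percentile went from 66.2 and 65.3 at 0 h to 52.1 and 56.5 at 96 h. By −log10 p it was lower at 48 h (62.2 and 58.8) and at 96 h. It was lower at 96 h within the deposited list as well but had no call by fold enrichment at any time, and at 72 h it was higher within the list only. Fbxo15 was lower at 48 h on all 3 scales (47.5 and 51.5 against 31.5 and 38.0).

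Retention varied widely between clusters. The mean share of regions kept over the PHx libraries had a median of 85.9% over the 300 clusters, with quartiles of 76.7% and 94.4%. It was lowest at Myom1 (a protein of the muscle sarcomere; 33.3% of 5 regions in a span of 9.36 kb), Auh (40%), Arid5b (44.4%) and Atrn (46.7%). It was 100% at Reg4, Morn1, Lcmt1 and Cdh26, which headed the 34 clusters that kept each region. The 4 least kept clusters were weak already at 0 h, with mean percentiles between 18.2 and 33.9.

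**Figure D5:**
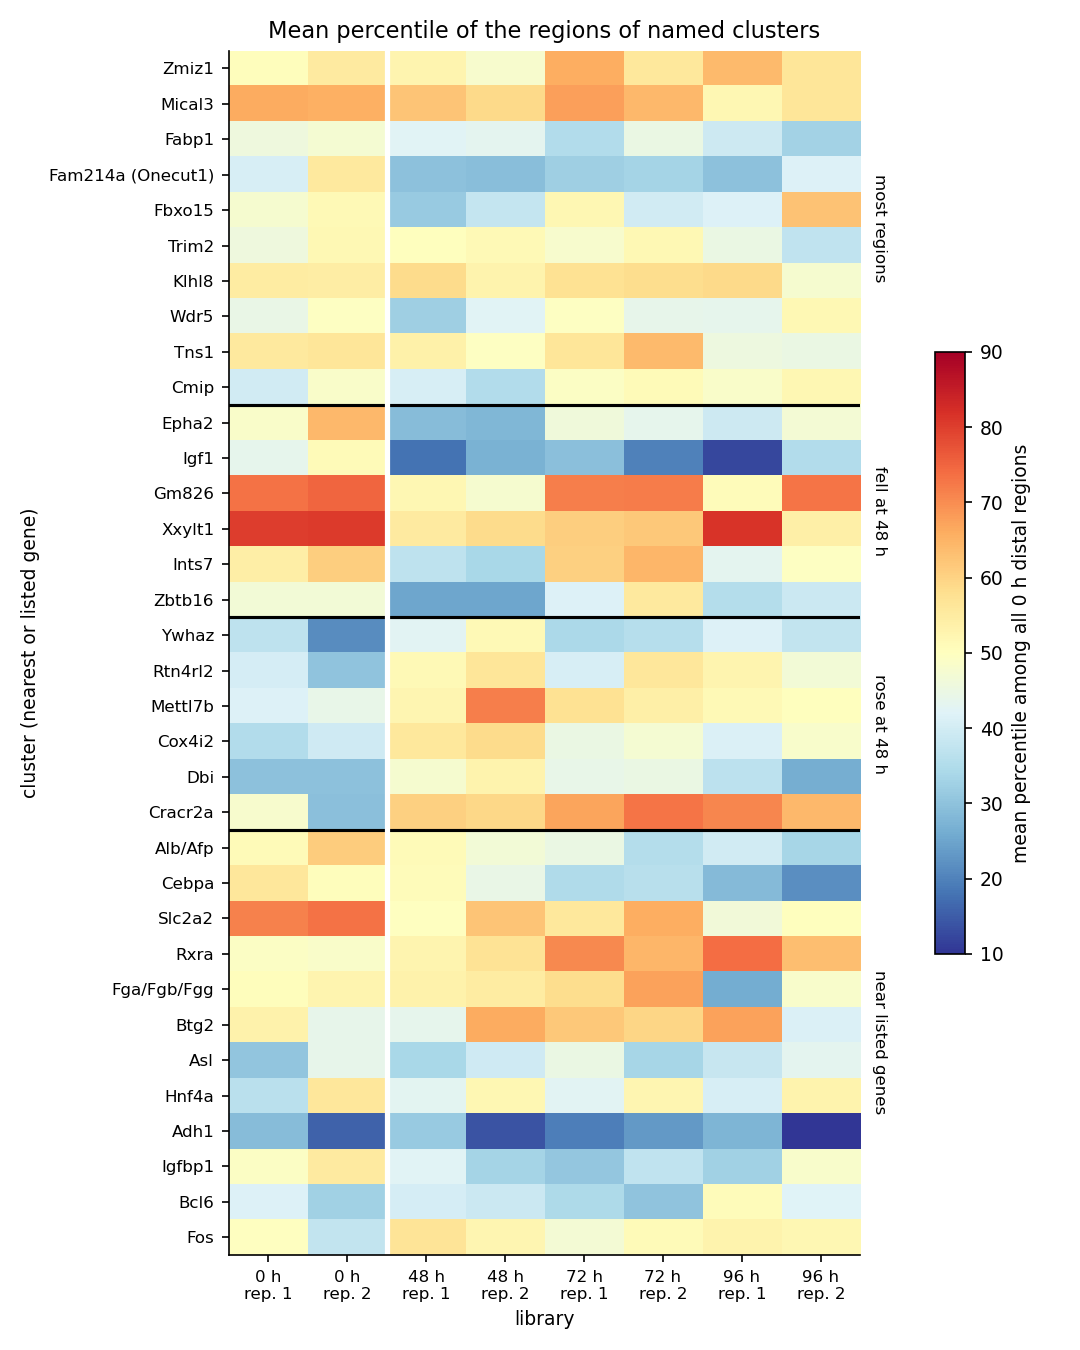
Mean percentile of the regions of named clusters (rows) in each library (columns), on a colour scale from 10 to 90 among all 0 h distal regions. The white line parts 0 h from PHx libraries and black lines part the 10 clusters with most regions, the largest falls and rises at 48 h, and clusters near listed genes. Igf1 is lower and Cracr2a higher in all 6 PHx libraries, and Cebpa is lowest at 96 h.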

How the data were processed

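The 8 bulk ATAC-Seq libraries were analysed from their peak lists. As their methods state, the authors ran the ENCODE pipeline, mapping to mm10 with Bowtie2, removing PCR duplicates and calling peaks with MACS2 (versions not given in the sources used here). The deposited lists are 1 per library. Names of the deposited lists state a Tn5 shift, a maximum number of peaks, a p-value threshold and a blacklist filter. The deposited −log10 p of the authors' peak caller ranked the intervals. The deposited fold enrichment, a ratio to local background, and the summit described and centred them. The display score and −log10 q were not used. Lists held 105206 to 154577 distinct intervals. Depth is unknown, so no counting interval was computed and the study's test on reads was not run.

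Analyses used Python 3.11.15, pandas 2.3.3 and numpy 2.4.6, GENCODE M21 basic TSS and GRCm38.p6 sequence. Groups came from the sample labels. Members, gene lists and motifs were chosen with earlier results of these data known. Kept shares were compared by exact permutation over libraries, and the calculations were tested on simulated data. Named clusters were the 10 with most regions, the 6 largest falls and 6 largest rises at 48 h, the 4 least and 4 most kept, and up to 4 genes per list. Some items are not reported here. Alternatives are given in the closing section.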

Additional observations from a re-analysis of the deposited data

Results flagged for a closer look

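Clusters chosen by the same rule from 1 list of 0 h alone were read in the other 0 h library, which the choice had not used. Chosen from replicate 1, members were kept more often than other regions in 0 h replicate 2 (85.1% against 80.8%, a difference of 4.32 points) and less often in each of the 6 PHx libraries (−0.333 to −2.63 points). Chosen from replicate 2, the difference in 0 h replicate 1 was 0.432 points (81.1% against 80.7%), and −0.637 to −5.25 points in the PHx libraries. The 0 h values lay above 0 and all PHx values below it. With 1 held-out 0 h library per choice, this difference was not tested.

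The Tns1 cluster moved in opposite directions at different times in both libraries, with changes of mean percentile from 0 h of −4.31 points (48 h), 4.30 (72 h) and −10.9 (96 h). The fibrinogen cluster at Fga changed by 2.33 points (48 h), 11.2 (72 h) and −14.4 (96 h). Neither difference between times was tested, and fold enrichment kept the call at none of these times in either cluster, with the opposite call for Tns1 at 48 h.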

How the results depend on the processing

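The lower share of member regions kept stayed below 0 with 25000 or 100000 intervals, stitching at 5 or 25 kb, a TSS distance of 5 kb, 100 or 600 clusters, 50% coverage and comprehensive GENCODE start sites (−1.17 to −5.89 points, each at the smallest p). The call was lost with clusters ordered by covered length (0.0430 points, or −0.939 within strata), ranking by fold enrichment (−1.04, or 0.491 within strata), and any listed interval (0.00140, or −0.0312 within strata), and 3 of these 6 values were not below 0. Leaving out 1 library gave −1.48 to −3.25 points, and −1.40 to −3.38 within strata. With 5 PHx libraries left the smallest possible p is 0.0625, which each reached. The cause of the dependence on ordering was not tested.

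The contrast of 48 h with the later times lay between −0.811 and −4.49 points without 1 library. With members minus others it lay between −0.111 and 1.79, where the sign turned without 48 h replicate 2, and it also turned with 100000 intervals (−0.363), 25 kb (−0.139) and 100 clusters (−0.469). With the replicate block both contrasts kept their values (−2.65 and 0.647 points) with exact p-values of 0.333 and 0.556, so no call changed. The labels do not tie the numbers to shared animals or days, and same-numbered libraries of different times showed correlations of −0.0418 to 0.0771 in their deviations over distal regions. Over member regions the correlations were −0.04 to 0.137, the highest between 0 and 96 h.

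Member regions kept in no PHx library numbered 54 with 100000 intervals, 13 by fold enrichment, 42 at 25 kb, 13 for 100 clusters, 47 for 600, 45 at 50% coverage, 0 with any listed interval, and 29 to 148 without 1 library, the highest without 0 h replicate 1. New regions in member spans numbered 1, 0 and 0 (48, 72 and 96 h) with 25000 intervals, 50, 41 and 35 with 100000, and 9, 0 and 4 by fold enrichment. Without 1 library they ranged from 19 to 52, 8 to 35 and 4 to 32.

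When both choice and rank used fold enrichment, clusters numbered 57 lower and 70 higher at 48 h, 70 lower and 41 higher at 72 h, and 55 lower and 33 higher at 96 h. For the same clusters fold enrichment percentiles gave 28 lower and 111 higher at 48 h, 46 lower at 72 h, and 38 lower and 53 higher at 96 h. Percentiles within the deposited list gave 27 higher at 48 h, and 46 lower and 96 higher at 72 h. Without 1 library the counts ranged from 93 to 164 lower and 49 to 91 higher at 48 h, 91 to 163 and 46 to 102 at 72 h, and 98 to 162 and 34 to 73 at 96 h. Calls with 1 library in place of 2 are easier by construction. The settings on strata of GC content and length, CTCF matches, comprehensive start sites and fold percentiles of the same clusters were chosen after seeing the data. Depth is unknown, so absence from the strongest intervals is not absence of accessibility.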

Other observations

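The same rule was also applied to each of the 8 lists alone, and the overlap of the resulting 300 clusters was counted as the share of clusters that met a cluster of the other list. Libraries of 1 time point shared a median of 54.8% (46.0 to 57.7% over 4 pairs), a 0 h and a PHx library 50.4% (45.3 to 56.2% over 12 pairs), and PHx libraries of different times 52.3% (44.7 to 60.3% over 12 pairs). These ranges overlap, and pairs share libraries, so no test was made. The 2 libraries of 0 h shared 57%, above the range of the 12 pairs of a 0 h and a PHx library, whereas the 2 libraries of 96 h shared 46%. Whether the densest clusters changed more between time points than within them was not tested.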
